A study of Mus musculus with 12 samples.

Results

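Endothelial and angiogenesis genes were examined in the thymic epithelium/stroma of day 7 pups of the mouse model with 4 core genotypes (FCG). The list held 36 genes chosen for endothelial identity, for signalling by vascular endothelial growth factor (VEGF) and the angiopoietins, for leukocyte adhesion and for lymphatic vessels. Of these, 35 were measured, each by 1 probe set with a single gene symbol, out of 19938 named genes on the array. Selp, the gene of the adhesion molecule P-selectin, had no such probe set, so its signal was not analysed here.

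In FCG mice, on a C57BL/6J background, an autosomal transgene replaces the testis-determining gene Sry of the Y chromosome, so that gonads and sex chromosomes segregate independently. XXF and XYF pups have ovaries and no Sry transgene, with XX or XY sex chromosomes. XXM and XYM pups carry the Sry transgene and have testes, with XX or XY sex chromosomes. The Y chromosome of XYF and XYM lacks its own Sry, and males carry the transgene on an autosome, so that a difference by gonadal sex is also a difference by transgene. There were 3 XXF, 3 XYF, 4 XXM and 2 XYM arrays, 12 in all, numbered 1 to 12 across the genotypes in the labels. Age, background and tissue were the same in all. Whether each array held 1 pup or a pool is not given in the sources used here, so p-values measure only the spread between these arrays, which may be technical.

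Blood vessels of the thymus carry lymphoid progenitors into the organ and mature T cells out of it. Progenitors leave the blood across venules whose endothelium displays adhesion molecules such as P-selectin, VCAM-1 and ICAM-1. VEGF-A, made by stromal cells, drives endothelial growth through the receptor VEGFR2. Angiopoietin 1 stabilises vessels through the receptor TIE2, on which angiopoietin 2 acts in a context-dependent way. The comparison asked whether genes of this compartment differed with gonadal sex, with sex chromosome complement or with their combination.

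Of the 35 measured genes, 0 differed by gonadal sex and 0 by sex chromosome complement after adjustment over all 35556 probe sets. The arrays nevertheless differed in the level of the listed genes as a group. XYF array 4 had the highest signal of all 12 arrays for 20 of the 35 genes, against 8.64% of all probe sets. Over the 12 arrays, the correlation of the other 34 genes with Cdh5 had a median of 0.67. After adjustment 0 of them passed, a count limited by the number of permutations. Angpt1 stood apart from the rest in having its lowest signals on arrays 9 to 12.

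The arrays carried the signals of their labels. Sry lay between 2524 and 2836 on the male arrays and between 416 and 565 on the female arrays, and the Y-linked gene Eif2s3y lay between 12061 and 13268 on XY arrays and between 37.6 and 55.7 on XX arrays. Median signals of the 12 arrays were 328 to 346. For the labelled tissue, 10 of 10 thymic epithelium markers exceeded the reference for background described next. Among them were Prss16 at a mean signal of 8466 and Krt8 at 6433. So did 11 of 11 thymocyte markers (Cd8b1 at 5736, Rag1 at 5298), although the tissue had been washed to remove thymocytes, 10 of 10 pericyte and smooth muscle markers (Rgs5 at 1593, Notch3 at 1351), 7 of 8 mesenchyme markers, 7 of 9 macrophage and dendritic cell markers and 8 of 8 proliferation markers. Of the blood markers measured, 0 of 4 erythroid and 1 of 4 platelet genes exceeded the reference, out of 8 and 6 listed. Of the adipocyte markers 3 of 7 did. In such bulk samples, fewer cells of a type and less RNA per cell cannot be told apart. Scores on the main axis of variation (18.9% of the variance) were negative on arrays 1 to 4, whatever the genotype. They were positive on arrays 9 to 12. Differences are therefore also given within the sets of arrays 1 to 4, 5 to 8 and 9 to 12, which the labels do not call batches. Arrays 5 to 8 were XXM, XXM, XXF and XYF. In that set the lone XY array was female and all males were XX, so differences by sex and by complement partly overlap.

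Signals are linear intensities, and no detection calls came with them. The 95th percentile of the mean signal of 1035 olfactory receptor probe sets, 309.5, served as the reference for background. It is not a detection limit. Sry, which female pups do not carry, read 416 to 565 on the female arrays, above the reference. A signal above the reference therefore does not by itself show that a gene is expressed. A mean signal above the reference was found for 29 of the 35 genes, and for 26 to 32 of them with other references. Levels of different probe sets cannot be set against each other, so each level below belongs to its gene alone.

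All 12 genes of endothelial identity exceeded the reference. Cdh5, the gene of VE-cadherin of endothelial junctions, had signals of 2378, 2056 and 2135 on XXF arrays 3, 7 and 11, of 2707, 2112 and 2218 on XYF arrays 4, 8 and 12, of 1906, 2217, 1649 and 2075 on XXM arrays 2, 5, 6 and 10, and of 2282 and 2129 on XYM arrays 1 and 9. XYF array 4 was the highest and XXM array 6 the lowest, and the other 10 arrays overlapped among genotypes. Pecam1, the gene of the junctional molecule CD31, lay between 1947 and 2342 on XXF arrays, between 2095 and 2729 on XYF arrays, between 2017 and 2230 on XXM arrays, and at 2279 and 2167 on XYM arrays. The further junction genes Esam and Cldn5 had mean signals of 989 and 784, and Emcn, the gene of the sialomucin endomucin of capillaries and veins, had 751. Robo4, a guidance receptor of endothelium, had 556, and Egfl7, a factor secreted by endothelium, had 1498. Plvap, the gene of the diaphragm of fenestrated vessels, had 574, and Vwf, the gene of von Willebrand factor, had 460. Eng, a co-receptor for BMP9 and BMP10, had 1610, Car4, the gene of a carbonic anhydrase of capillary surfaces, had 599, and Aplnr, the apelin receptor, had 1190.

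The 4 transcription factors were all above the reference. Sox17 and Sox18, SOXF factors of vascular development, had mean signals of 363 and 615, Erg, an ETS factor of endothelial identity, had 396, and Ets2, an ETS factor that many cell types express, had 3203. Of the VEGF ligands, Vegfa had a mean signal of 937 and lay between 809 and 1070 on the 12 arrays, whereas Vegfc, the ligand of lymphatic growth, had 187, below the reference. Kdr, the gene of VEGFR2, had 971, 856 and 783 on the XXF arrays, 1089, 856 and 879 on the XYF arrays, 758 to 825 on the 4 XXM arrays, and 984 and 790 on the XYM arrays. Flt1, the gene of VEGFR1, had 663, 594 and 587 on the XXF arrays, 803, 589 and 651 on the XYF arrays, 556, 600, 511 and 586 on the XXM arrays, and 663 and 574 on the XYM arrays. Both receptors were highest on XYF array 4 and lowest on XXM array 6. For Flt1 all 4 genotypes overlapped. For Kdr the XXM arrays lay below all XYF arrays and overlapped the XXF and XYM arrays. Flt4, the gene of VEGFR3 of lymphatic endothelium, had a mean signal of 161, below the reference, and the co-receptor genes Nrp1 and Nrp2 had 1499 and 485.

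Of the angiopoietins, Angpt1 had a mean signal of 345 and Angpt2, which endothelium itself makes, had 251, below the reference. Tek, the gene of TIE2, had 615, 557 and 514 on the XXF arrays, 755, 544 and 475 on the XYF arrays, 533, 501, 616 and 576 on the XXM arrays, and 610 and 520 on the XYM arrays, so that XYF held both the highest and the lowest value. The related receptor gene Tie1 had a mean signal of 677. Of the adhesion genes, Vcam1 lay between 2158 and 2588 on XXF arrays, between 2241 and 2731 on XYF arrays, between 2098 and 2454 on XXM arrays, and at 2836 and 2397 on XYM arrays. Icam1 lay between 1345 and 1558, between 1380 and 1588, between 1234 and 1436, and at 1609 and 1428 in the same order of genotypes. Both are also expressed by other stromal cells. Icam2 had a mean signal of 1042, and Sele, the gene of E-selectin, had 264, below the reference.

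The lymphatic genes were of uneven standing. Prox1, the master regulator of lymphatic endothelium, lay between 106 and 162 on the 12 arrays and Mmrn1, a marker of lymphatic vessels, between 64.7 and 123, all below the reference. Lyve1 had a mean signal of 501 and Pdpn of 654, both above it, and neither gene is restricted to lymphatic vessels, since macrophages express Lyve1 and epithelial and stromal cells express Pdpn. Thus the defining markers of lymphatic endothelium were below the reference on every array.

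**Figure D1:**
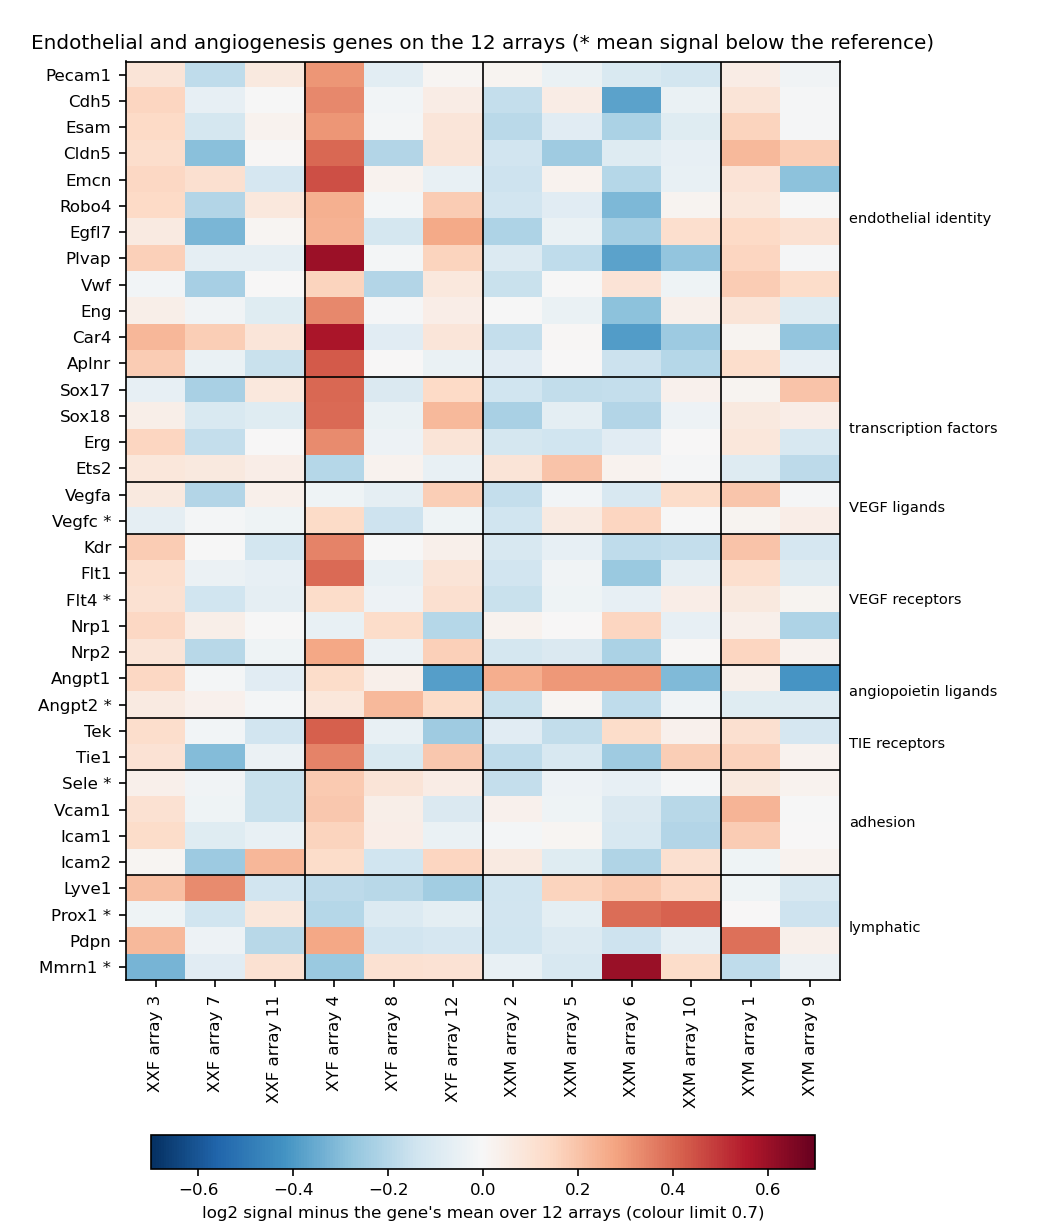
Log2 signal of each of the 35 genes (rows, grouped by role) on each of the 12 arrays (columns, grouped by genotype), minus the gene's mean over the 12 arrays. XYF array 4 is red for most endothelial genes, XXM array 6 is blue for many of them, and Angpt1 is blue on arrays 9 to 12.

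For gonadal sex, 0 of 35 genes passed limma's moderated test with Benjamini-Hochberg adjustment over all probe sets, against 0.00281% of all probe sets. At an unadjusted p under 0.05 there were 2 of 35, Angpt2 and Car4, against 3.03% of all probe sets. That count became 1 without XYM array 9 and 4 without XYF array 8. Males minus females, 25 of 35 genes had a log2 difference below 0, against 48.7% of all probe sets. Its median was -0.04 over the 35 genes and 0.00 over the whole array, and in the 3 sets of arrays, in order of number, the medians of the 35 genes were -0.17, -0.01 and -0.05. The median was -0.02, with 20 of 35 genes below 0, without XYF array 4, XXF array 3 or XYM array 9, and -0.08 without XYM array 1, XXF array 7 or XYF array 8. Of the other cell types, 8 of 8 proliferation markers and 7 of 10 thymic epithelium markers had a negative log2 difference by sex, 6 of 7 adipocyte and 7 of 8 mesenchyme markers a positive one, and 0 of them passed the adjustment; their part in the values of the endothelial genes was not tested.

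Car4 had signals of 693, 666 and 626 on XXF arrays and 876, 559 and 625 on XYF arrays, against 525, 593, 450 and 494 on XXM arrays and 599 and 487 on XYM arrays. Of the 6 male arrays, 4 lay below all female arrays. The log2 difference of Car4 was -0.34 ± 0.12 (SE), with an adjusted p of 0.985 in limma and an unadjusted p of 0.0108 in the two-sided exact permutation test over the 12 arrays. Within the sets of arrays it was -0.48, -0.24 and -0.35. Angpt2 had signals of 261, 255 and 248 on XXF arrays and 264, 293 and 274 on XYF arrays, against 224, 252, 221 and 245 on XXM arrays and 236 and 235 on XYM arrays, all below the reference. Of the 6 male arrays, 5 lay below all female arrays. Its log2 difference was -0.17 ± 0.06 (SE), with an adjusted p of 0.985 in limma and an unadjusted p of 0.00433 in the exact permutation test, and -0.19, -0.21 and -0.12 within the sets. Both differences were negative in every set of arrays, and neither passed the adjustment. The sets are parts of the 12 arrays on which both genes were picked, so their signs are no independent evidence. Next by unadjusted p were Plvap (log2 difference -0.21), Emcn (-0.19), Flt1 (-0.13) and Erg (-0.11), whose adjusted p was 0.985 in limma.

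By role, 10 of 12 endothelial identity genes, 4 of 4 transcription factors, 5 of 5 VEGF receptors and co-receptors, 2 of 2 TIE receptors and 3 of 4 adhesion genes had a negative log2 difference, and 2 of 2 VEGF ligands and 4 of 4 lymphatic genes a positive one. For Cdh5 it was -0.12 (95% confidence interval -0.32 to 0.08), for Kdr -0.12 (-0.31 to 0.08) and for Vcam1 0.01 (-0.16 to 0.19). Over the 35 genes the intervals reached from a male to female ratio of 0.661 to one of 1.29. The intervals of Car4 and Angpt2 did not include a ratio of 1.

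For sex chromosome complement, 0 of 35 genes passed the adjustment, against 0.0366% of all probe sets. At an unadjusted p under 0.05 there were 8 of 35, against 2.55% of all probe sets. The 6 with a positive log2 difference, XY minus XX, were Sox18, Plvap, Nrp2, Sox17, Sele and Cldn5, and the 2 with a negative one were Ets2 and Lyve1. Of the 35 genes, 29 had a log2 difference above 0, against 52.6% of all probe sets, and the median was 0.11 over the 35 genes and 0.01 over the whole array. All 12 endothelial identity genes were among the 29. In the 3 sets of arrays, in order of number, the medians of the 35 genes were 0.20, 0.06 and 0.04. The value for arrays 5 to 8 set a lone XY array, XYF array 8, against XX arrays of both sexes. The count of 8 became 3 without XYM array 1, XYF array 4 or XXF array 7, 4 without XXM array 2, 5 or 6 or XXF array 11, 5 without XYF array 12, and 2 with weights for array quality. Without XYF array 4 the median was 0.08 and 25 of 35 genes were above 0, and without XYM array 1 the median was 0.07. The identity genes above 0 were 10 of 12 in each of these 2 cases.

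Sox18 had signals of 629, 568 and 576 on XXF arrays and 522, 583, 531 and 596 on XXM arrays, against 804, 591 and 714 on XYF arrays and 640 and 630 on XYM arrays. Of the 5 XY arrays, 4 lay above all XX arrays. Its log2 difference was 0.22 ± 0.08 (SE), with an adjusted p of 1.00 in limma and an unadjusted p of 0.00631 in the two-sided exact permutation test over the 12 arrays, and it was 0.32, 0.08 and 0.20 within the sets of arrays. Sele, below the reference, had signals of 270, 258 and 236 on XXF arrays and 234, 257, 253 and 261 on XXM arrays, against 298, 280 and 273 on XYF arrays and 276 and 267 on XYM arrays. Again 4 of the 5 XY arrays lay above all XX arrays, with a log2 difference of 0.13 ± 0.06 (SE), an adjusted p of 1.00 in limma and an unadjusted exact permutation p of 0.00631, and it was 0.19, 0.13 and 0.12 within the sets of arrays. The log2 difference of Plvap was 0.27, of Cldn5 0.24, of Sox17 0.22 and of Nrp2 0.19. XYF array 4 was the highest XY array for these 4 genes, with 858 for Plvap against at most 634 on any other array.

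Ets2 had signals of 3374, 3349 and 3297 on XXF arrays and 3396, 3670, 3250 and 3176 on XXM arrays, against 2780, 3245 and 3075 on XYF arrays and 3005 and 2812 on XYM arrays. Of the 5 XY arrays, 4 lay below all XX arrays. The log2 difference of Ets2 was -0.18 ± 0.06 (SE), with an adjusted p of 1.00 in limma and an unadjusted p of 0.00253 in the exact permutation test, and it was -0.23, -0.07 and -0.14 within the sets of arrays. Lyve1 had signals of 576, 626 and 454 on XXF arrays and 451, 554, 565 and 551 on XXM arrays, against 438, 435 and 420 on XYF arrays and 487 and 461 on XYM arrays. Of the 5 XY arrays, 3 lay below all XX arrays, and the log2 difference was -0.25 ± 0.09 (SE), with an adjusted p of 1.00 in limma and an unadjusted exact permutation p of 0.0189. Within the sets it was -0.14, -0.42 and -0.18. Ets2 and Lyve1 thus opposed most of the list. Of the other cell types, 11 of 11 thymocyte markers and 7 of 8 proliferation markers had a negative log2 difference by complement, 8 of 10 thymic epithelium markers a positive one, and 0 of them passed the adjustment; their part in the values of the endothelial genes was not tested.

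By role, 12 of 12 endothelial identity genes, 3 of 4 transcription factors, 2 of 2 VEGF ligands, 4 of 5 VEGF receptors and co-receptors, 2 of 2 TIE receptors and 4 of 4 adhesion genes had a positive log2 difference by complement. Nrp1, a co-receptor that many stromal cells express, had -0.11, and Angpt1 had -0.21. Of the lymphatic genes 3 of 4 were below 0, with -0.25 for Lyve1, -0.16 for Prox1 and -0.08 for Mmrn1, against 0.16 for Pdpn. The log2 difference was 0.14 for Cdh5, 0.08 for Pecam1, 0.14 for Kdr, 0.04 for Tek, 0.13 for Vcam1 and 0.11 for Icam1. The median over the 12 identity genes was 0.14. Over the 35 genes the intervals reached from an XY to XX ratio of 0.702 to one of 1.41.

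**Figure D2:**
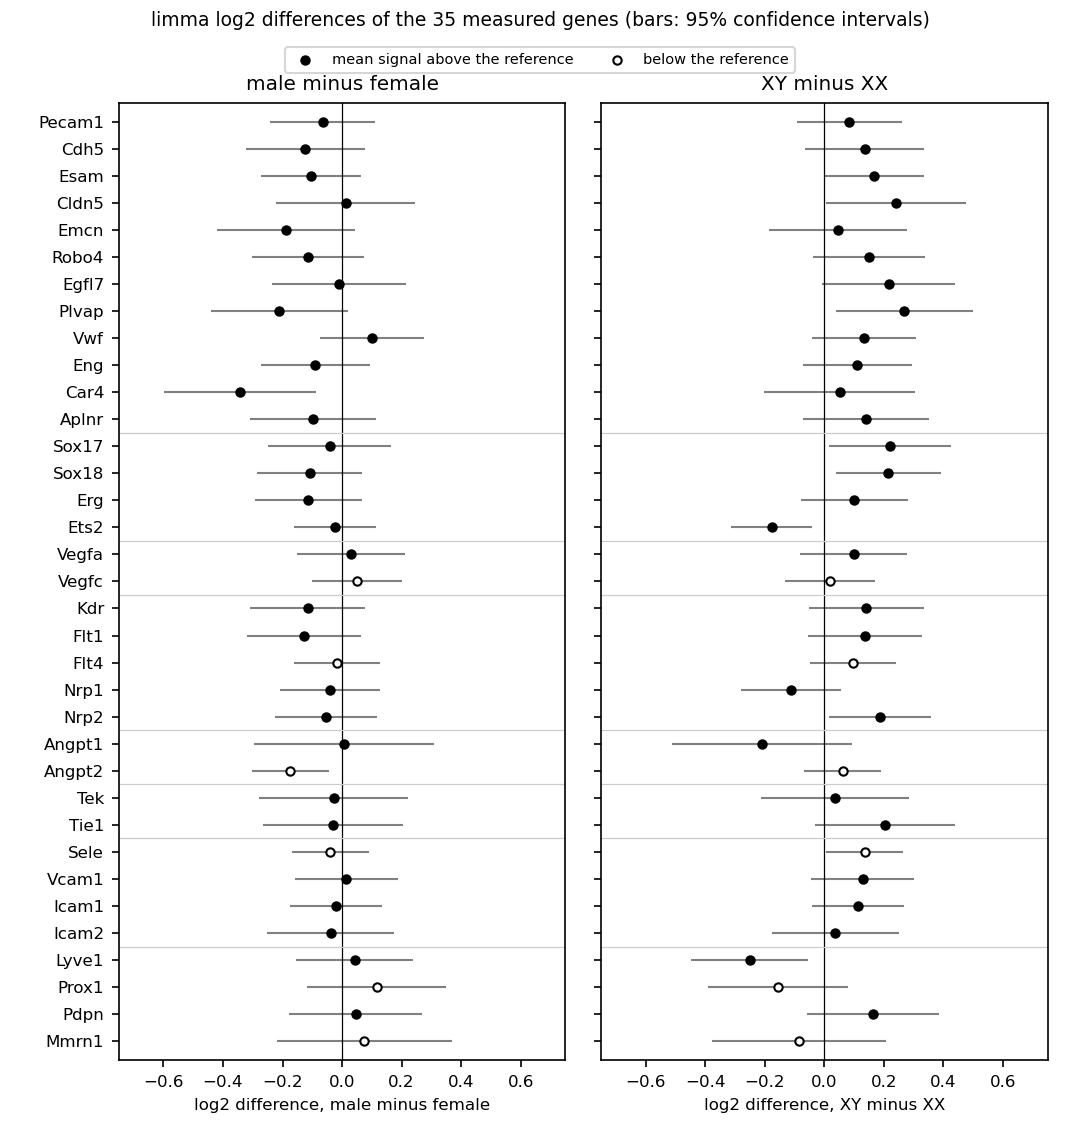
Log2 difference of each of the 35 genes by gonadal sex (left) and sex chromosome complement (right) from the limma fit, with 95% confidence intervals; filled points are genes with a mean signal above the reference and open points those below it. Most points lie left of 0 by sex and right of 0 by complement, and most intervals include 0.

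For the interaction of sex and complement, 0 of 35 genes passed the adjustment, as did 0% of all probe sets, and 0 had an unadjusted p under 0.05, against 1.54% of all probe sets. The lowest unadjusted p was that of Pdpn, with a log2 interaction of 0.31 ± 0.20 (SE) and an adjusted p of 1.00 in limma. Pdpn had signals of 846 and 665 on XYM arrays, against 783, 592 and 598 on XYF arrays, 587, 607, 587 and 620 on XXM arrays, and 760, 633 and 567 on XXF arrays. Mmrn1 and Lyve1 followed, with log2 interactions of -0.33 and 0.19.

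Between single genotypes 0 of 35 genes passed the adjustment in each of 4 contrasts. The shares of all probe sets that passed were 0.00281% for XXM minus XXF, 0.00562% for XYM minus XYF, 0.0169% for XYF minus XXF and 0.0197% for XYM minus XXM. The test of any difference among the 4 genotypes called 0 of 35 genes, against 0.0281% of all probe sets. Of the 35 genes, the lowest unadjusted p belonged to Car4 in XXM minus XXF (log2 difference -0.37), to Angpt2 in XYM minus XYF (-0.23), to Lyve1 in XYF minus XXF (-0.34), to Ets2 in XYM minus XXM (-0.21) and to Plvap in the test over all 4 genotypes. Sorted by genotype mean, XYF was highest for 22 of 35 genes, against 22.6% of all probe sets, and XXM was lowest for 26 of 35, against 19.2%. The first of these counts rested on 1 array, since without XYF array 4 it was 8 of 35, against 26.1% of all probe sets. Without XXM array 6, XXM was lowest for 20 of 35 genes, against 22.2% of all probe sets.

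**Figure D3:**
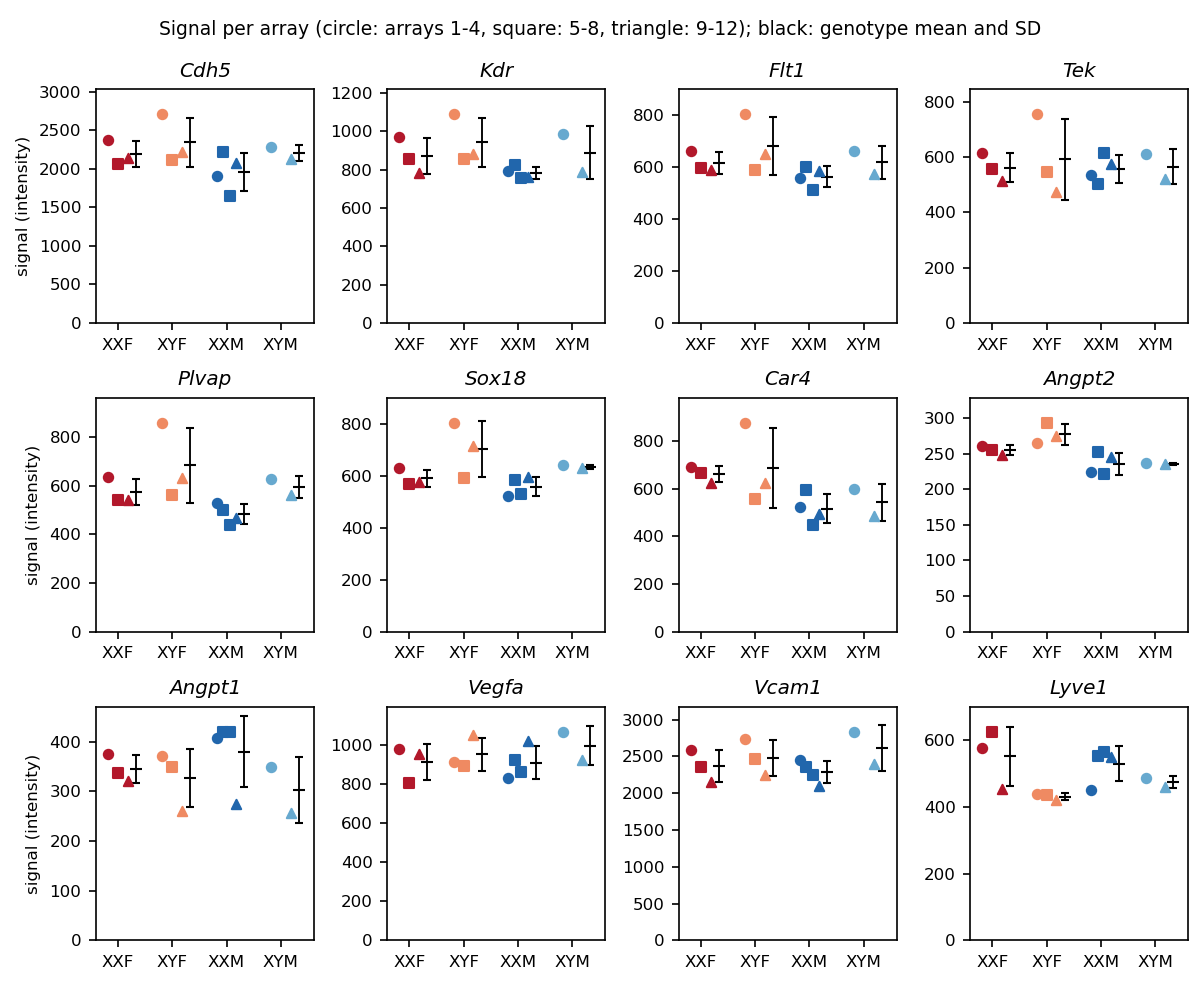
Signal (linear intensity, from 0) of 12 genes on each array by genotype, with the genotype mean and SD in black and the array sets as circles (arrays 1 to 4), squares (5 to 8) and triangles (9 to 12). One circle, XYF array 4, is the highest point for Cdh5, Kdr, Flt1, Tek, Plvap, Sox18 and Car4, and the triangles are the lowest points of each genotype for Angpt1.

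The score of an array was the mean, over the 29 genes above the reference, of the log2 signal minus the gene's mean. Because other cells also express some of the 29, such as Ets2, Vcam1, Lyve1 and Pdpn, it does not measure endothelium alone. It was 0.11, -0.09 and -0.03 on XXF arrays 3, 7 and 11, 0.27, -0.05 and 0.03 on XYF arrays 4, 8 and 12, -0.09, -0.04, -0.13 and -0.05 on XXM arrays 2, 5, 6 and 10, and 0.11 and -0.05 on XYM arrays 1 and 9. The 3 highest scores belonged to arrays 4, 3 and 1, all of the set numbered 1 to 4, and to 3 different genotypes. Scores ranged from -0.30 to 0.27 for mesenchyme (7 genes), -0.29 to 0.18 for adipocyte (3) and -0.15 to 0.30 for macrophage and dendritic cell markers (7). Thymic epithelium markers (10 genes) ranged from -0.16 to 0.13 and thymocyte markers (11) from -0.09 to 0.13. A mean over fewer genes varies more, so these ranges cannot be set directly against that of the 29 genes. Pericyte and smooth muscle markers, at 0.16, and thymic epithelium markers, at 0.13, were also highest on XYF array 4, whereas mesenchyme markers were at -0.07 and thymocyte markers at -0.09 there. The part of these other cell types in the endothelial values was not tested.

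**Figure D4:**
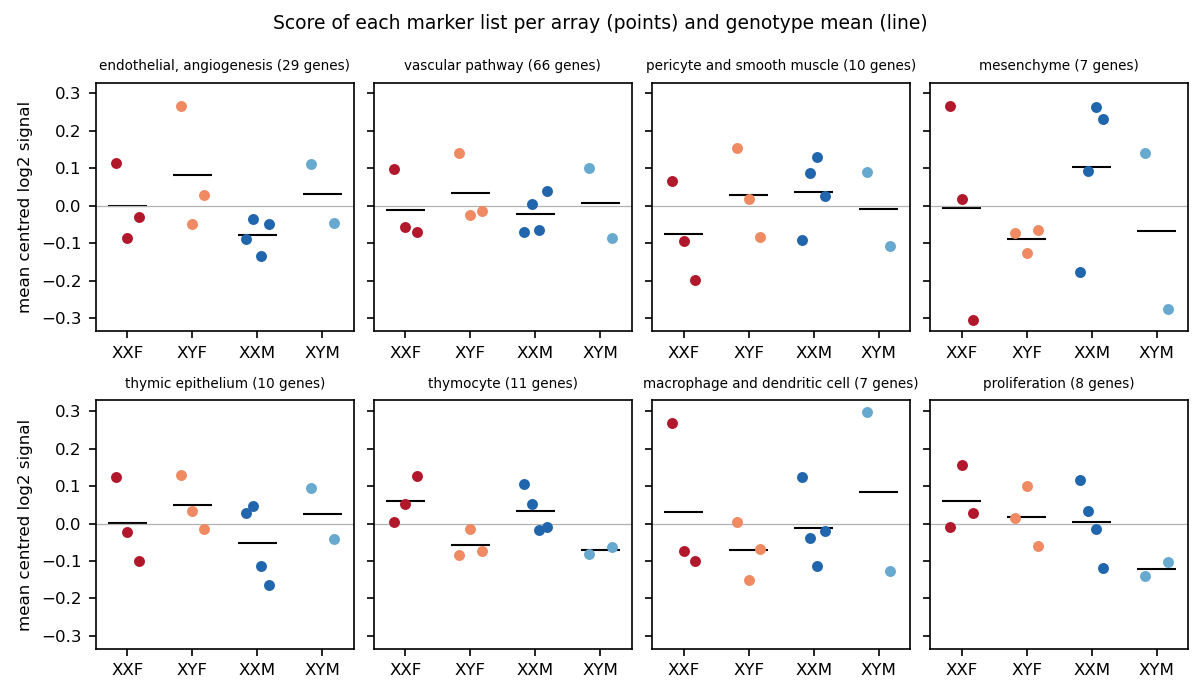
Score of each marker list on each array (points, by genotype), which is the mean log2 signal of its genes above the reference after centring each gene over the 12 arrays, with the genotype mean as a line. The score of the endothelial and angiogenesis list spans -0.13 to 0.27, with XYF array 4 at the top and XXM array 6 at the bottom.

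Whether the genes varied together was examined by their correlation with Cdh5 over the 12 arrays, computed for 35555 probe sets. After adjustment 0 of the 34 genes passed, as did 0% of all probe sets for positive correlations. With 100000 permutations p could not fall below 1.0e-05, too high for a single probe set to pass over 35555. The count of 0 was thus limited by the number of permutations. It does not show that no gene varied with Cdh5. At an unadjusted permutation p under 0.05 there were 22 of 34, against 7.88% of all probe sets. The median r was 0.67 over the 34 genes and -0.07 over all probe sets, and r was above 0 for 28 of 34. The median was 0.62 after centring on the array sets, 0.58 after centring on the genotype, 0.55 without XYF array 4, and 0.56 without the 2 arrays farthest from the Cdh5 median, XYF array 4 and XXM array 6. The count of 22 became 14 without XYF array 4 and 10 without those 2 arrays, against 6.12% and 2.32% of all probe sets.

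Flt1 had r = 0.938 (permutation p = 3.0e-05, adjusted p = 0.142) and rho = 0.895 (permutation p = 0.00021), and r = 0.870 without the 2 farthest arrays. Esam had r = 0.913 (permutation p = 2.0e-05, adjusted p = 0.142) and rho = 0.951 (permutation p = 2.0e-05), and r = 0.878 without those arrays. Robo4 had r = 0.876 (permutation p = 0.00011, adjusted p = 0.178) and rho = 0.881 (permutation p = 0.00037), and r = 0.701 without them. Kdr had r = 0.820 (permutation p = 0.00048, adjusted p = 0.277), rho = 0.776 (permutation p = 0.00409) and r = 0.727 without them. The relation of Eng to Cdh5 (r = 0.875, permutation p = 0.00288, rho = 0.650, permutation p = 0.0262) rested on those arrays, since r was 0.353 without them. Within the array sets, of 4 arrays each, r of Flt1 was 0.985, 0.982 and 0.837 and that of Kdr 0.980, 0.858 and 0.964. It was 0.978, 0.864 and 0.967 for Esam, 0.996, 0.855 and 0.876 for Robo4, and 0.850, 0.946 and 0.192 for Eng. Not every gene of the list kept a high r in each set, as with 0.955, -0.851 and 0.512 for Cldn5.

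Of the 11 other identity genes, Vwf had the lowest value, with r = 0.30 (permutation p = 0.352, rho = 0.510, permutation p = 0.0937). Low values were also found for the receptor gene Tek, with r = 0.349 (permutation p = 0.254, rho = 0.0769, permutation p = 0.816), and for its ligand gene Angpt1, with r = -0.159 (permutation p = 0.624, rho = -0.0909, permutation p = 0.781). For Tek, r was -0.203 without XYF array 4. Lyve1 had r = -0.282 (permutation p = 0.389, rho = -0.224, permutation p = 0.488) and Ets2 r = -0.381 (permutation p = 0.221, rho = -0.343, permutation p = 0.277). Mmrn1, at background level, had r = -0.820 (permutation p = 0.00266, rho = -0.685, permutation p = 0.0168) and r = -0.501 without the 2 farthest arrays.

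**Figure D5:**
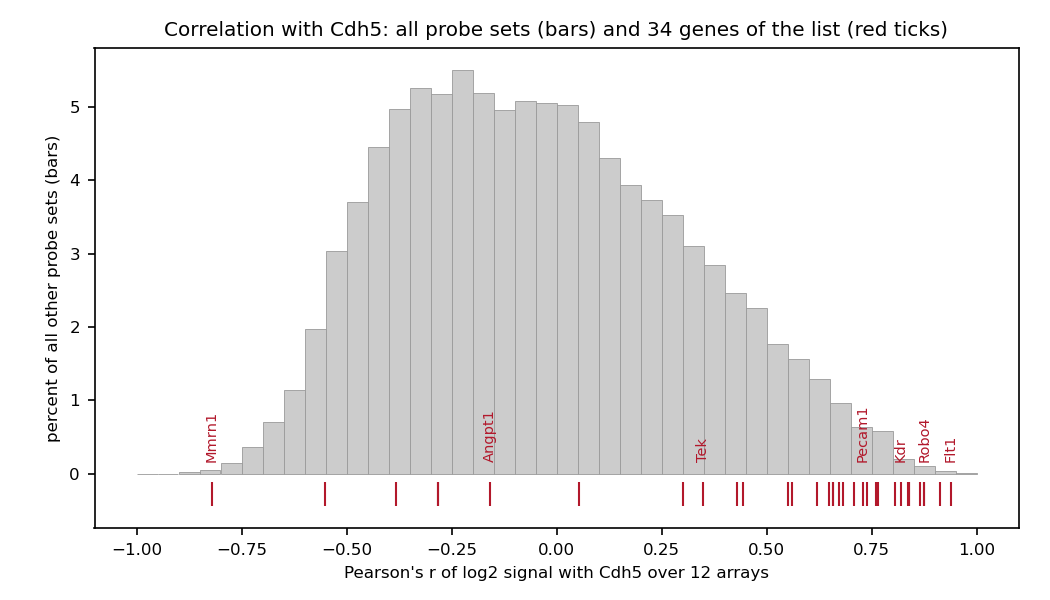
Distribution of Pearson's r with Cdh5 over the 12 arrays for all other probe sets (grey bars, percent of probe sets) and for the 34 other genes of the list (red ticks, some named). Most ticks lie in the right tail of the bars, with Flt1 at 0.938 and Mmrn1 at -0.820.

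ETS and SOXF factors are known to act on endothelial genes, so the promoters of the list were searched for letters that such factors can bind. RefSeq promoters of GRCm38.p6 were at hand for 23 of the 36 genes, in 29 windows of the 250 bases before a transcription start. Selp, whose signal was not measured, was among these genes. The letters CCGGAA or CAGGAA (ETS) were found on either strand in 14 of 29 windows (48.3%), against 35.1% of 32851 windows of all genes. CCGGAA alone was in 3 of 29 (10.3%), against 12% of all, and CAGGAA in 11 of 29 (37.9%), against 25.7%. The SOX letters ACAATG were in 2 of 29 windows (6.9%), against 10.7%. The 3 motifs were searched as exact letters, so that no match says only that these letters are not in the window. Below are the windows of the 4 genes with a single window that had the highest r with Cdh5. They lie at chr5:147726012-147726261 (minus strand, Flt1), chr9:37401722-37401971 (plus strand, Robo4), chr2:32646345-32646594 (plus strand, Eng) and chr1:62703067-62703316 (plus strand, Nrp2). They read 5′ to 3′ with the searched letters in capitals and end at the base before the start.
Flt1: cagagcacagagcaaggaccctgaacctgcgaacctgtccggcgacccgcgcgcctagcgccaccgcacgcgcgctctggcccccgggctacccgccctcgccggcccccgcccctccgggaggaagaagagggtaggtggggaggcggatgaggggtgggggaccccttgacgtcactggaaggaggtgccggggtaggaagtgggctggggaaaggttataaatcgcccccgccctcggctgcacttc
Robo4: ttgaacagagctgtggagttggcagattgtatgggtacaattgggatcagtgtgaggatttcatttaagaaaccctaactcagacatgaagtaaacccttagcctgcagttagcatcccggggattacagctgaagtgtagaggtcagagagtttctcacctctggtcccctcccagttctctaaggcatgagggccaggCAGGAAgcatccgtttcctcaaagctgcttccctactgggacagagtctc
Eng: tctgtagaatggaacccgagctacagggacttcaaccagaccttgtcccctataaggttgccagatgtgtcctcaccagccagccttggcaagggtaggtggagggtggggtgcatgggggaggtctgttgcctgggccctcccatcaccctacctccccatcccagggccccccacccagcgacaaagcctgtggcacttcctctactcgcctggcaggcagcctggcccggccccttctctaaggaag
Nrp2: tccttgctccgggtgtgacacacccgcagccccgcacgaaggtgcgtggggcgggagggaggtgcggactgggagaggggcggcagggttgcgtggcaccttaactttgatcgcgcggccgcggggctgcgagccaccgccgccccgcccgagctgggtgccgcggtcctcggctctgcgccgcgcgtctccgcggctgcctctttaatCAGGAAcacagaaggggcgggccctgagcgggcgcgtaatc
Robo4 held CAGGAA from 50 to 45 bases before its start and Nrp2 from 41 to 36 bases before, both on the strand of the gene. The windows of Flt1 and Eng held none of the 3 motifs. Of the other receptor genes, Kdr held CCGGAA in 1 place, and Tek and Tie1 held CAGGAA in 2 places and 1 place. The windows of the receptor genes Flt4 and Nrp1 held none of the 3 motifs.

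Angpt1 varied with the array number. Its signal was 376 and 337 on XXF arrays 3 and 7 and 322 on XXF array 11, 371 and 348 on XYF arrays 4 and 8 and 260 on XYF array 12, 407, 419 and 420 on XXM arrays 2, 5 and 6 and 275 on XXM array 10, and 349 on XYM array 1 and 256 on XYM array 9. In each genotype the array numbered 9 to 12 was the lowest, with 256 to 322 on those 4 arrays against 337 to 420 on the other 8, so that the sets did not overlap. The mean log2 signal of Angpt1 on arrays 9 to 12 differed by -0.45 from that on arrays 1 to 8, and 1.31% of all probe sets had a difference as low or lower. Over the 35 genes the median of this difference was -0.01. As each set of 4 arrays held 3 or 4 genotypes, the shift was not tied to 1 genotype, and what else set these arrays apart is not given in the sources used here.

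The ratio of Angpt2 to Angpt1 within an array, on the log2 scale, was -0.56 ± 0.35 in males and -0.33 ± 0.22 in females (SD, n = 6 each), a difference of -0.23 (adjusted p = 0.190, two-sided exact permutation test adjusted over 2 tests). It was -0.27 ± 0.26 in XY (SD, n = 5) and -0.57 ± 0.28 in XX pups (SD, n = 7), a difference of 0.30 (adjusted p = 0.187, same exact permutation test). Within the array sets, the difference by sex was -0.21, -0.51 and 0.01 and that by complement 0.16, 0.44 and 0.25. Neither difference passed the test, and Angpt2 lay below the reference.

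Of 89 other genes of vascular biology, 86 were measured and 66 exceeded the reference. By sex 0 of 86 passed the adjustment in limma and 0 had an unadjusted p under 0.05, against 3.03% of all probe sets, and the median was -0.03 on the log2 scale. The lowest unadjusted p values belonged to Edn1 (log2 difference 0.15), the gene of endothelin 1, Sema3e (0.12) and Gdf2 (0.21), the gene of BMP9, all below the reference, and to Vegfb (0.11) and Ecscr (-0.12), above it. By complement 0 of 86 passed in limma, 10 had an unadjusted p under 0.05 with a positive log2 difference and 0 with a negative one, against 2.55% of all probe sets, and the median was 0.02. The 5 with the lowest p were the flow-responsive factor Klf4 (0.18), the chemokine gene Cxcl12 (0.20), the endothelial surface gene Cd93 (0.23), the Notch ligand gene Jag2 (0.17) and Edn1 (0.17), each with an adjusted p of 1.00. For the interaction 0 of 86 passed and 3 had an unadjusted p under 0.05, against 1.54% of all probe sets. By complement 51 of 86 were above 0, beside the 52.6% of all probe sets given above.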

How the data were processed

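Thymic epithelium/stroma of day 7 FCG pups was washed repeatedly to remove thymocytes, and its RNA was hybridised to 12 Affymetrix Mouse Gene 1.0 ST arrays (1 colour). The authors deposited 1 linear intensity per probe set and array, for 35556 probe sets. Expression Console 1.1 and PLIER appear in the submitters' processing notes, whereas the methods of the study name RMA with quantile normalization, which would give log2 values. Which of these made the deposited intensity values could not be settled; they were used as deposited, and a further quantile normalization was an alternative.

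Values were converted to log2 with no offset. Array annotation, updated through RefSeq gene identifiers, gave 21789 probe sets 1 symbol, 1621 several and 12146 none; the brightest probe set stood for a gene. limma 3.58.1 in R 4.3.3 fitted the 4 genotype means, with contrasts for gonadal sex, sex chromosome complement and their interaction and Benjamini-Hochberg adjustment over all probe sets at a threshold of 0.05. Single genes were also tested by exact permutation over arrays. That test, and the differences within array sets, took the plain difference of mean log2 between all arrays of each group, not the limma contrast. As the genotypes had unequal numbers of arrays, it did not balance sex and complement against each other. Correlations used 100000 permutations, for which the smallest possible p is 1.0e-05. Scripts were tested on simulated data. Precision is limited by the number of arrays.

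The genes, lists and tests were chosen with earlier results of these data known. The text names all 36 genes, with values on every array or their range for 13 junction, receptor, ligand, adhesion and lymphatic genes and for up to 4 further genes with the lowest unadjusted p of a contrast, and up to 5 vascular genes per contrast. Alternatives were another normalization, an offset of 16, a mean signal of at least 200, array sets as a block, an additive model, other moderation, array weights, the methods' two-way analysis, the mean over probe sets and leaving out each array. Leaving single arrays out of the order of the genotypes, and recounting the identity genes, were chosen after seeing the data.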

Additional observations from a re-analysis of the deposited data

Results flagged for a closer look

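An array lay far from the others of its group, by the size of the gap relative to the group's range, in 12 of 185 groups examined over the 35 genes, the score and the angiopoietin ratio. Chance alone gives about 1 in 20 groups, and the groups share arrays.

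XYF array 4 was the high one for Plvap, at 858, against 542 to 634 on the other 5 female arrays and 562 to 630 on the other 4 XY arrays, and for Eng, at 2026, against 1511 to 1654 on the other female arrays. XYM array 1 was the high one of the males for Kdr, at 984 against 758 to 825, and for Pdpn, at 846 against 587 to 665. XXF array 3 was the high one of the XX arrays for Pdpn, at 760 against 567 to 633, and for the score of the list, at 0.11 against -0.13 to -0.03.

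XXM array 6 was the low one of the XX arrays for Eng, at 1313 against 1511 to 1649, and XYF array 8 the low one of the XY arrays for Vwf, at 398 against 483 to 519. Among the 4 XXM arrays, array 10 was low for Angpt1, at 275 against 407 to 420, and high for Sox17, at 367 against 319 to 327, and array 2 was low for Lyve1, at 451 against 551 to 565. For 0 of the 35 genes did XY minus XX run in opposite directions without overlap in females and in males. The share of all probe sets is not given here, so nothing is drawn from this count.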

How the results depend on the processing

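The counts of genes called for sex, complement and interaction were 0 under each of the 21 alternatives (20 for the interaction), with lowest adjusted p values of 0.386, 0.653 and 0.776 in limma. The lone XYM array left in 2 of these fits is assumed to vary like the other groups. The count of genes correlated with Cdh5 was 0 under each of its 17 alternatives, all with the same limit of 100000 permutations. The median log2 difference by sex ranged from -0.08 to -0.02 over the alternatives and that by complement from 0.07 to 0.15, with no change of sign, and both ranges came from leaving out 1 array. By complement 30 of 35 genes kept their sign under every alternative that held them (the filter at a mean signal of 200 left out Vegfc, Flt4, Prox1 and Mmrn1), the exceptions being Emcn, Car4, Vegfc, Tek and Icam2, and by sex 19 of 35 did. Genes at an unadjusted p under 0.05 numbered 1 to 4 by sex and 2 to 11 by complement. The difference of the Angpt2 to Angpt1 ratio by sex was -0.32 to -0.15 leaving out 1 array and changed sign to 0.0077 within arrays 9 to 12 alone; that by complement was 0.21 to 0.37. The cause was not tested. No replicate number is shared between genotypes to pair them by; with the sets of array numbers as a block, 0 of 35 genes were called in each contrast. Small differences cannot be resolved with 2 to 4 arrays a genotype, and levels near the reference carry little signal over background.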

Other observations

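Correlation with Cdh5 over the 12 arrays is described here for other lists, beside the 34 genes of the list. It was above 0 for 54 of 66 vascular genes and for 10 of 10 thymic epithelium markers above the reference. The lowest vascular r was -0.609, of Angptl4 (0.244 without XYF array 4 and XXM array 6). Aire had the highest r of the thymic epithelium markers, 0.795 (0.533 without those arrays). The median r was 0.41 over the 66 vascular genes above the reference, 0.17 over 10 pericyte and smooth muscle markers, 0.47 over 10 thymic epithelium markers, -0.10 over 7 mesenchyme markers and -0.27 over 11 thymocyte markers. Ptprb, the gene of the phosphatase VE-PTP that acts on TIE2 and VE-cadherin, had r = 0.928 (permutation p = 8.0e-05, adjusted p = 0.142, rho = 0.916 with permutation p = 9.0e-05) and r = 0.856 without XYF array 4 and XXM array 6. Pdgfb, the endothelial ligand that recruits pericytes, had r = 0.876 (permutation p = 5.0e-05, adjusted p = 0.142, rho = 0.923 with permutation p = 9.0e-05) and r = 0.773 without them.

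Among the pericyte markers Rgs5 had r = 0.908 (permutation p = 0.00024, adjusted p = 0.231, rho = 0.797 with permutation p = 0.00297), whereas Notch3 had r = -0.106 (permutation p = 0.740, rho = 0.0839 with permutation p = 0.799) and Pdgfrb r = 0.296 (permutation p = 0.355, rho = 0.238 with permutation p = 0.458). Fabp4, listed as an adipocyte marker and also expressed by capillary endothelium, had r = 0.761 (permutation p = 0.00296, adjusted p = 0.353, rho = 0.888 with permutation p = 0.00034). The other adipocyte markers above the reference, Plin1 and Pparg, had r = -0.493 (permutation p = 0.113) and r = -0.369 (permutation p = 0.226). Without XYF array 4 and XXM array 6 their r was 0.606 and 0.780. These genes were picked after their values were seen. Of all positive correlations 0 passed the adjustment, a count limited by the number of permutations.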
